A study of Homo sapiens with 12 samples.

Results

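The 7 mitochondrially encoded mRNAs for subunits of respiratory complex I (MT-ND1, MT-ND2, MT-ND3, MT-ND4L, MT-ND4, MT-ND5 and MT-ND6) were followed through 12 RNA-seq libraries of U2OS cells, a human osteosarcoma line. They were chosen by name, as the complex I genes of the mitochondrial genome, and all 7 were found among the 22379 genes of the deposited table. Every group carried Cas9 from a transient plasmid transfection followed by puromycin selection, and pools rather than clones were used. The study's methods give shorter selection and expansion for the NUP93 and EXOSC5 guides than for the remaining guides, so as written these times cannot be told apart from the genotype. The guide was nontargeting in the group called NONT, aimed at NUP93 in the group called NUP93-KO, and at EXOSC5 in EXOSC5-KO. NUP93 is a nuclear pore protein and EXOSC5 a subunit of the RNA exosome, which degrades RNA from the 3′ end. Each genotype was given 1 μM triptolide for 8 h, or DMSO (called no drug here, as the sample titles call it untreated), with 2 replicates in each of the 6 groups.

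Complex I is the NADH dehydrogenase that feeds electrons into the respiratory chain, and its membrane arm is built around the subunits that mitochondrial DNA encodes. The remaining subunits are encoded in the nucleus and imported. Mitochondrial DNA is transcribed by its own polymerase, POLRMT, as long transcripts of the heavy and the light strand that are cut into separate RNAs. Triptolide targets XPB, a helicase of TFIIH that RNA polymerase II needs to start transcription and POLRMT does not use, so the comparison asks how mRNAs made by another polymerase stand when transcription by RNA polymerase II is inhibited.

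All 7 genes have 1 exon and lie on the mitochondrial chromosome of GRCh38 (16569 bases). MT-ND1 spans chrM:3307-4262, MT-ND2 chrM:4470-5511, MT-ND3 chrM:10059-10404, MT-ND4L chrM:10470-10766, MT-ND4 chrM:10760-12137 and MT-ND5 chrM:12337-14148, all on the plus strand of the build. MT-ND6 spans chrM:14149-14673 on the minus strand and is the only mRNA encoded on the other strand from the remaining 12. The strands differ in base composition: the MT-ND6 mRNA was 35.6% G and 7.05% C, and the other members were 9.50% to 12.1% G. The first 60 bases of MT-ND2, MT-ND4 and MT-ND6, the members on which most of the comparisons turned, show this contrast, with every G in capitals and each sequence in mRNA sense.
MT-ND2: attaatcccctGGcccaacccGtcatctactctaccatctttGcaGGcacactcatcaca
MT-ND4: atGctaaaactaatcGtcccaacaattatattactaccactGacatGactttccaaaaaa
MT-ND6: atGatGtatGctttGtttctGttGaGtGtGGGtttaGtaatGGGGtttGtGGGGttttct

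Of these 60 bases, 6 were G in MT-ND2 (chrM:4470-4529), 4 in MT-ND4 (chrM:10760-10819) and 21 in MT-ND6 (chrM:14614-14673, minus strand). The mRNA of MT-ND1 ended in TA and those of MT-ND2, MT-ND3 and MT-ND4 in a single T after the last whole codon; in such mRNAs the poly(A) tail completes the stop codon. MT-ND4L and MT-ND5 ended in a whole TAA and MT-ND6 in AGG. MT-ND6 mRNA is known to carry little or no poly(A) tail, and these libraries were made from poly(A)-selected RNA, so the values of MT-ND6 describe what that selection retained.

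MT-ND4L and MT-ND4 are read in different frames from 1 mRNA, and MT-ND5 and MT-ND6 meet end to end on opposite strands. The plus strand of both places is shown because it bears on how far the values of neighbours can be told apart. Capitals mark the 7 bases shared by MT-ND4L and MT-ND4 (chrM:10760-10766, within chrM:10740-10786) and, at the other border, the last 25 bases of MT-ND6, which is read from the minus strand (chrM:14149-14173, within chrM:14124-14173).
MT-ND4L and MT-ND4: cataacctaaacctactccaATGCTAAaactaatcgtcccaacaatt
MT-ND5 and MT-ND6: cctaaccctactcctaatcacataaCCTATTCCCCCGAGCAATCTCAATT

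The values were divided by size factors from ERCC spike-in RNAs that the authors added in proportion to the number of cells, so they follow mRNA per counted cell. In bulk RNA of this kind, a changed mix of cells and a changed amount of RNA per cell cannot be told apart. Approximate depth was 8.60 M to 11.96 M reads per library. NUP93 was at 1395 and 1432 in NUP93-KO without drug against 1753 and 2489 in NONT, and EXOSC5 was at 216 and 148 in EXOSC5-KO against 299 and 481, so each targeted mRNA was still present in its pool. VIM, SPARC and COL1A1 were high in every library (lowest values 24270, 7368 and 15200). Among the other osteoblast-lineage and mesenchymal markers, RUNX2, ALPL and COL1A2 had means of 311, 189 and 21.1 without drug, while SP7 and BGLAP were at 0 to 5.68. Among markers of other cell types, the epithelial keratin KRT18 reached 13640. EPCAM, CDH1, PTPRC and PECAM1 reached only 47.6, 69.7, 4.70 and 9.99. The replicates of NONT without drug stood apart in scale. The second over the first was 1.45 for the sum of all genes, 1.67 for the 6 other mitochondrial mRNAs and 1.63 to 1.91 for the 6 heavy-strand members, whereas in the other 5 groups the heavy-strand members gave 0.80 to 1.25. Results that rest on these libraries are therefore given with and without each of them.

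The complex I mRNAs were abundant and unequal. Per kb of mRNA, the mean over the 6 libraries without drug was 10331 ± 2498 for MT-ND3, 7781 ± 1967 for MT-ND2, 6231 ± 1529 for MT-ND4, 4224 ± 1001 for MT-ND4L, 3812 ± 763 for MT-ND1, 1634 ± 415 for MT-ND5 and 91.6 ± 12.9 for MT-ND6 (SD, n = 6). MT-ND3 was above MT-ND2, MT-ND4 above MT-ND4L, MT-ND1 above MT-ND5 and MT-ND5 above MT-ND6 in 12 of 12 libraries. MT-ND4L and MT-ND4 lie on 1 mRNA and still differed, so order per kb need not be order of mRNA amount. Values were divided by the full annotated length, without a correction for fragment size. This limits most the short MT-ND4L and MT-ND3 (297 and 346 bases). MT-ND4L was above MT-ND1 in 11 of 12 libraries but at a ratio of 0.990 to 1.46, so this pair was not well separated. MT-ND2 was above MT-ND4 in 6 of 6 libraries without drug and in 2 of 6 with triptolide.

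MT-ND6 lay far below all other members. The mean of the 6 heavy-strand members per kb was 42.7 to 174 times the MT-ND6 level per kb, depending on the library. By value and not per length, MT-ND4 ranked 193rd and MT-ND2 206th of 22379 genes without drug, whereas MT-ND6 ranked 11716th. MT-ND6 rested on about 24 to 53 reads per library, which gives a counting SD of 0.20 to 0.30 on the log2 scale, and each heavy-strand member on at least 838 reads.

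Together the members made up 0.170% to 0.248% of the sum of all genes without drug and 0.345% to 0.474% with triptolide. The mean share in NONT went from 0.188% ± 0.026 to 0.367% ± 0.031 (SD, n = 2 in each group). The NUP93-KO share went from 0.191% ± 0.020 to 0.366% ± 0.023, that of EXOSC5-KO from 0.244% ± 0.0062 to 0.449% ± 0.035. The share thus came to 1.95, 1.92 and 1.84 times its starting value. Within the 13 mitochondrial mRNAs the members held 33.0% to 35.2% in every library.

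The triptolide response was first read on the spike-in scale, as log2(value + 1) fitted with limma. The median of all 13811 genes tested was −1.62, −0.92 and −1.08 (NONT, NUP93-KO, then EXOSC5-KO, the order kept for all triplets below), and the median of the 7 members was −0.41, 0.28 and 0.03. The members' median was at percentile 97.5, 97.6 and 97.0 of all genes. The exception was MT-ND6 in NONT, at −1.65.

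**Figure D1:**
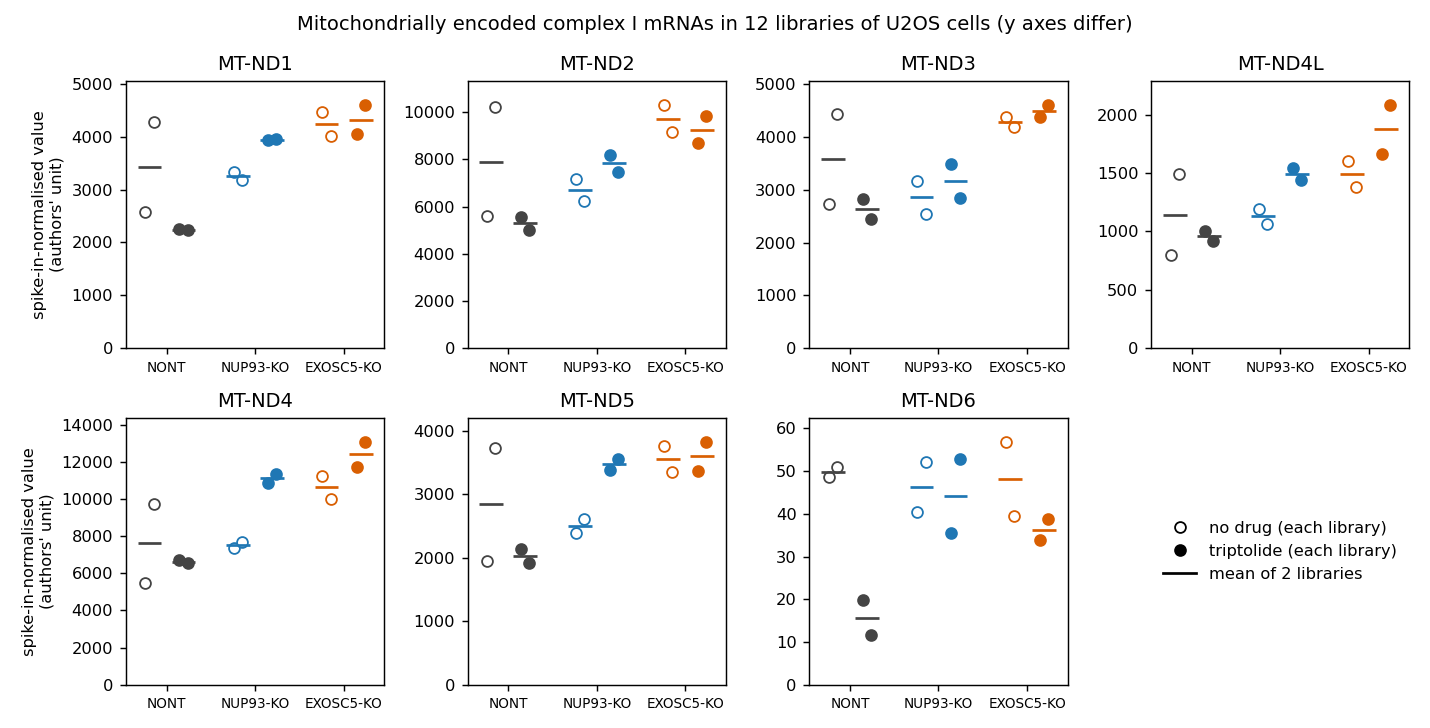
Spike-in-normalised values (y, linear from 0, one axis per gene) of the 7 complex I mRNAs in each library, by genotype (x); open circles are libraries without drug, filled circles libraries with triptolide and bars the mean of 2. The open circles of NONT lie far apart for every heavy-strand member, and the filled NONT circles of MT-ND6 lie at 19.8 and 11.6, below all other libraries.

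MT-ND1, whose product sits where the peripheral and membrane arms of the complex meet, was at 2586 and 4289 in NONT without drug and at 2247 and 2238 with triptolide. In NUP93-KO it went from 3327 and 3180 to 3933 and 3958, and in EXOSC5-KO from 4462 and 4021 to 4051 and 4597. The treated libraries thus lay below the untreated ones in NONT, above them in NUP93-KO and among them in EXOSC5-KO. The fitted log2 change was −0.57 (SE 0.21, adjusted p = 0.0172, limma) in NONT, where MT-ND1 fell, 0.28 (adjusted p = 0.275) in NUP93-KO and 0.03 (adjusted p = 0.911) in EXOSC5-KO. The NONT call was lost without the second untreated NONT library (−0.21, adjusted p = 0.155) and without the second treated one (−0.57, adjusted p = 0.0550).

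MT-ND2, 1 of the 3 large antiporter-like subunits of the membrane arm together with MT-ND4 and MT-ND5, was at 5605 and 10215 in NONT without drug and at 5560 and 5026 with triptolide. It was at 7170 and 6218 against 8177 and 7486 in NUP93-KO, and at 10296 and 9143 against 8696 and 9827 in EXOSC5-KO. The treated libraries were below in NONT, though 1 of them came close to the first untreated replicate; they were above in NUP93-KO and overlapping in EXOSC5-KO. MT-ND2 fell by 0.52 on the log2 scale in NONT (SE 0.23, adjusted p = 0.0453, limma). This call was lost on leaving out any 1 of 11 libraries (adjusted p = 0.0552 to 0.593); it was kept without the first untreated NONT library. The responses in the knockouts were 0.23 (adjusted p = 0.428) and −0.07 (adjusted p = 0.793).

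MT-ND4 had the highest mean value without drug, although MT-ND2 was above it in both NONT libraries. It was at 5492 and 9727 in NONT without drug and at 6693 and 6535 with triptolide, values that overlapped. In NUP93-KO it rose from 7347 and 7707 to 10867 and 11343, a log2 change of 0.56 (SE 0.22, adjusted p = 0.0433, limma). In EXOSC5-KO it was at 11228 and 10014 without drug and at 11745 and 13062 with triptolide, which did not overlap, with a change of 0.22 (SE 0.22, adjusted p = 0.376). The call in NUP93-KO was lost on leaving out any 1 of the 8 NUP93-KO and EXOSC5-KO libraries (adjusted p = 0.0594 to 0.153) and kept without any 1 of the NONT libraries.

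MT-ND4L, the short subunit whose reading frame runs into that of MT-ND4, was at 795 and 1492 in NONT without drug and at 1004 and 915 with triptolide. In NUP93-KO it was at 1195 and 1064 against 1546 and 1443, and in EXOSC5-KO at 1600 and 1380 against 1666 and 2079. The treated libraries were inside the untreated range in NONT and above it in both knockouts, but no change passed the test (0.40, adjusted p = 0.168 in NUP93-KO and 0.32, adjusted p = 0.238 in EXOSC5-KO). Per kb, MT-ND4L stood at 0.590 to 0.755 of MT-ND4 over the 12 libraries, with 0.639 to 0.755 without drug and 0.590 to 0.739 with triptolide.

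MT-ND3, a small subunit at the junction of the arms, was at 2722 and 4441 in NONT without drug and at 2830 and 2438 with triptolide. It was at 3176 and 2539 against 3495 and 2848 in NUP93-KO and at 4382 and 4186 against 4381 and 4602 in EXOSC5-KO. The arms overlapped in all 3 genotypes, and the fitted changes of −0.40, 0.15 and 0.07 did not pass the test (adjusted p = 0.0907, 0.584 and 0.786, limma).

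MT-ND5, the longest of the members at 1812 bases, was at 1955 and 3725 in NONT without drug and at 2138 and 1918 with triptolide. In NUP93-KO it was at 2386 and 2605 against 3379 and 3561, and in EXOSC5-KO at 3753 and 3347 against 3369 and 3822. The NUP93-KO arms were clearly apart, yet the change of 0.48 (SE 0.23) missed the threshold (adjusted p = 0.0963, limma), and those of −0.41 in NONT (adjusted p = 0.103) and 0.02 in EXOSC5-KO (adjusted p = 0.947) did too. Each SE pools the spread of all 6 groups, so the gap between the untreated NONT libraries also enters the SEs of the knockouts.

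MT-ND6, the light-strand member, behaved differently in NONT. It was at 48.5 and 50.9 without drug and at 19.8 and 11.6 with triptolide, about 51 and 29 reads against 33 and 24, and fell by 1.65 on the log2 scale (SE 0.43, adjusted p = 0.00205, limma). Its untreated replicates differed by a factor of 1.05 where the heavy-strand members differed by 1.63 to 1.91. In NUP93-KO it was at 40.5 and 52.2 against 35.5 and 52.8, with a change of −0.09 (adjusted p = 0.884), and in EXOSC5-KO at 56.8 and 39.6 against 33.8 and 38.8, with a change of −0.38 (adjusted p = 0.436). The arms overlapped in NUP93-KO and nearly met in EXOSC5-KO.

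**Figure D2:**
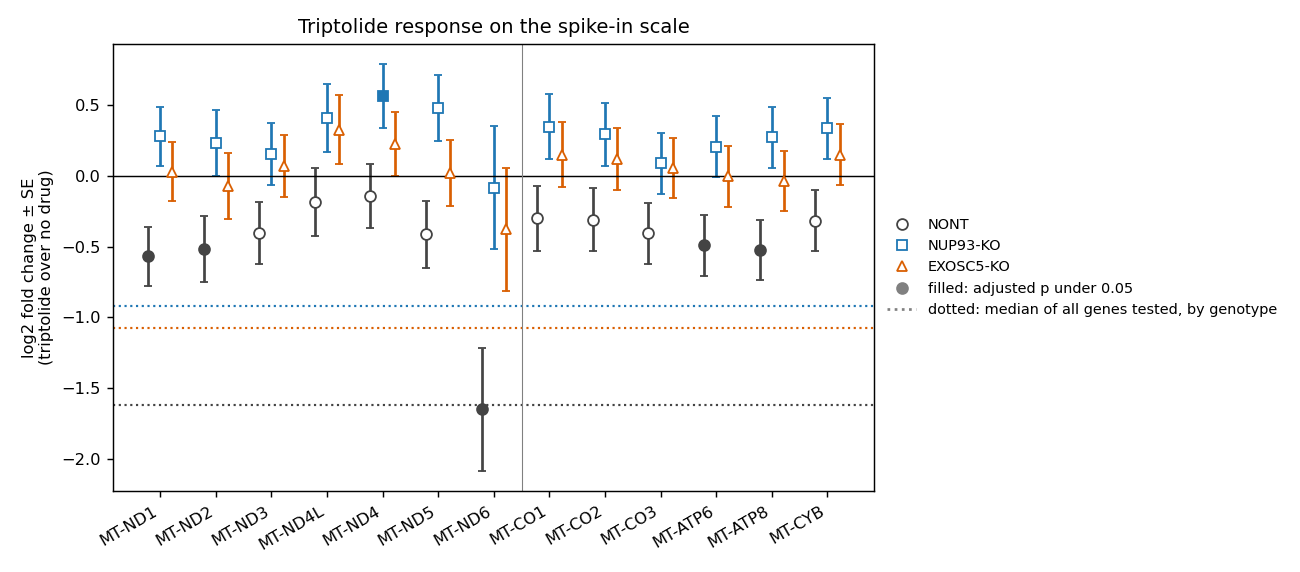
Fitted log2 change with triptolide on the spike-in scale (y, ± SE) for the 7 complex I mRNAs and, right of the line, the 6 other mitochondrial mRNAs (x), by genotype; filled symbols passed an adjusted p of 0.05 and dotted lines give the median of 13811 genes in each genotype. Every heavy-strand mRNA lies above the dotted line of its genotype, and MT-ND6 in NONT lies at −1.65 beside a median gene of −1.62.

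In NONT, 3 of the 7 members were called lower (MT-ND1, MT-ND2 and MT-ND6) and none higher, where 90.0% of all genes tested were called lower and 0.0507% higher. In NUP93-KO, 1 was called higher (MT-ND4) and none lower, against 0.138% and 55.1% of all genes, and in EXOSC5-KO none was called (0 also before adjustment), against 0.0796% and 64.3%. For the mean response of the 3 genotypes, MT-ND6 was the only member called (−0.70, SE 0.25, adjusted p = 0.0142, limma), where 90.7% of all genes were lower and 0.0507% higher. Of the 6 heavy-strand members, the 2 treated libraries of NONT lay wholly below the 2 untreated ones for 2 members (94.8% of all genes did so) and wholly above for none (0.210%). In NUP93-KO they lay above for 5 (1.81%) and below for none (79.1%), and in EXOSC5-KO above for 2 (0.666%) and below for none (88.0%).

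The untreated NONT libraries decided much of the NONT result. Without the first of them, all 7 members were called lower in NONT with a median of −0.88, where 89.9% of all genes were lower; without the second, MT-ND6 alone was called, with a median of −0.05, where 79.4% were. Leaving out the second NONT library with triptolide also left 1 member called, MT-ND6, where 80.4% of all genes were lower, and so did a fit without the mean-variance trend (90.0%). MT-ND6 itself was called lower in NONT whichever 1 of the 12 libraries was left out (−2.01 to −1.29). For the mean of the 3 genotypes, 3 members were called lower without the first untreated NONT library and none higher (92.2% and 0.0579% of all genes), and 3 higher and 1 lower without the second (0.130% and 87.3%). In NUP93-KO, 4 members were called higher when either untreated NONT library was left out (0.195% of all genes in both cases).

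When the libraries were instead scaled to the same sum over all genes, the 6 heavy-strand members were called higher with triptolide in each genotype, with a median over the 7 members of 0.92, 0.85 and 0.82 where the median gene was at −0.32, −0.36 and −0.29. On that scale 15.2%, 13.9% and 14.7% of all genes were called higher. The same 6 were called higher for the mean of genotypes (21.3% of all genes), and scaling by median of ratios also gave 6 in NONT (26.8%) and 6 for the mean (34.5%). MT-ND6 was at −0.36, 0.47 and 0.40 and was not called. The direction of the heavy-strand members in NONT thus depended on the scale. Their place above the median gene could hardly change, since rescaling a library moves all its genes together, so it is no separate result.

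The members were then set against the other mitochondrial mRNAs, by scaling each library to the same sum of MT-CO1, MT-CO2, MT-CO3, MT-ATP6, MT-ATP8 and MT-CYB, which encode subunits of cytochrome c oxidase, ATP synthase and complex III. This sum was 38854 and 65024 in NONT without drug and 39744 and 38820 with triptolide, 50029 and 46732 against 59773 and 56572 in NUP93-KO, and 67734 and 61481 against 65005 and 73870 in EXOSC5-KO. An error of the cell count or the spike-in does not enter this scale, and neither does any other change that all mitochondrial mRNAs share. The standard errors of the heavy-strand members came down to 0.12 to 0.14, and which of these lowered them was not tested.

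On this scale most complex I mRNAs moved with the other mitochondrial mRNAs. For the mean of the 3 genotypes, MT-ND4 rose by 0.21 (SE 0.07, adjusted p = 0.0120, limma) and MT-ND4L by 0.18 (SE 0.08, adjusted p = 0.0412), both read from the shared mRNA, and MT-ND6 fell by 0.71 on the log2 scale (SE 0.25, adjusted p = 0.0136). MT-ND1, MT-ND2, MT-ND3 and MT-ND5 were at −0.09, −0.12, −0.07 and 0.02 and were not called. Of all genes, 0.0652% were higher and 91.5% lower. The MT-ND4 and MT-ND6 calls were kept whichever library was left out, and the MT-ND4L call was lost for 8 of the 12 (adjusted p = 0.0664 to 0.110), among them the first library of NONT without drug.

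Within genotypes on the same scale, MT-ND6 fell by 1.32 in NONT (SE 0.43, adjusted p = 0.0116, limma), where 81.2% of genes were lower and 0.0724% higher, and MT-ND4 rose by 0.29 in NUP93-KO (SE 0.12, adjusted p = 0.0414), where 0.0869% were higher and 74.4% lower. In EXOSC5-KO no member was called, before adjustment either (0.0434% of genes were higher and 75.3% lower). The MT-ND6 call in NONT was lost without the first untreated library (−0.99, adjusted p = 0.108) and without the second treated library (−0.97, adjusted p = 0.0991). The MT-ND4 call in NUP93-KO was lost on leaving out any of 7 libraries, 3 of NUP93-KO and the 4 of EXOSC5-KO (adjusted p = 0.0554 to 0.205).

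**Figure D3:**
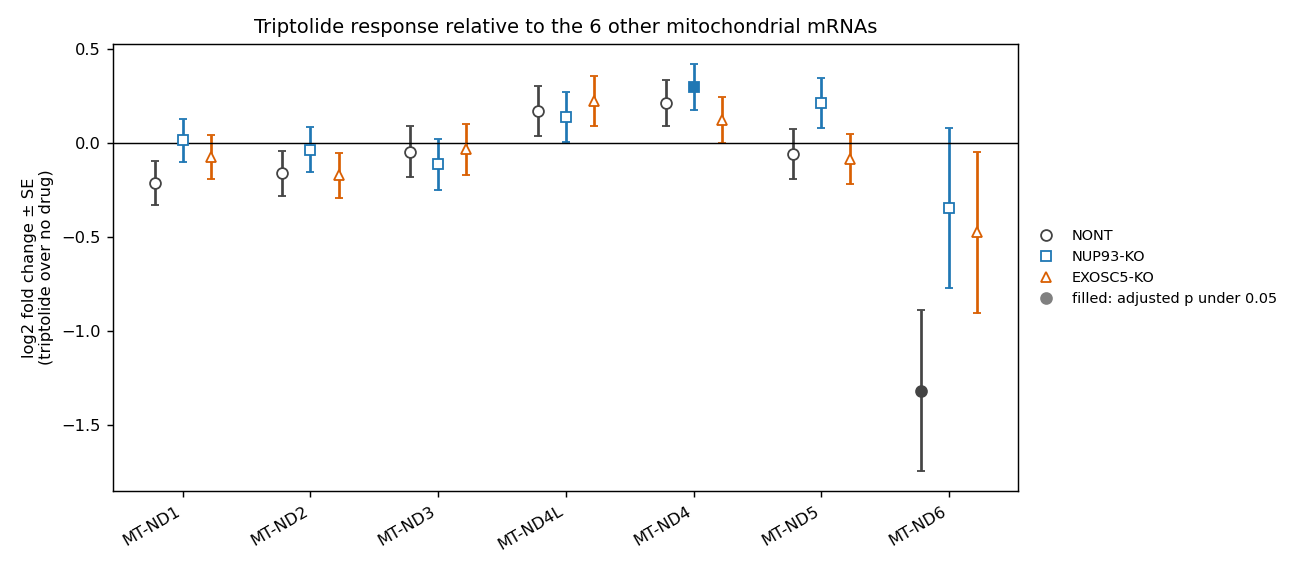
Fitted log2 change with triptolide (y, ± SE) of the 7 complex I mRNAs (x) after each library was scaled to the summed value of the 6 other mitochondrial mRNAs, by genotype; filled symbols passed an adjusted p of 0.05. MT-ND4 and MT-ND4L lie above 0 in all 3 genotypes and MT-ND6 below 0, at −1.32, −0.35 and −0.48.

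The ratio of MT-ND4 to MT-ND2, both per kb, is given as a description, since the pair was chosen after its values were seen. It was 0.741 and 0.720 in NONT without drug and 0.910 and 0.983 with triptolide. It was 0.775 and 0.937 against 1.00 and 1.15 in NUP93-KO, and 0.825 and 0.828 against 1.02 and 1.01 in EXOSC5-KO. In each genotype the treated libraries lay above the untreated ones, while across genotypes the ranges of 0.720 to 0.937 and 0.910 to 1.15 met.

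**Figure D4:**
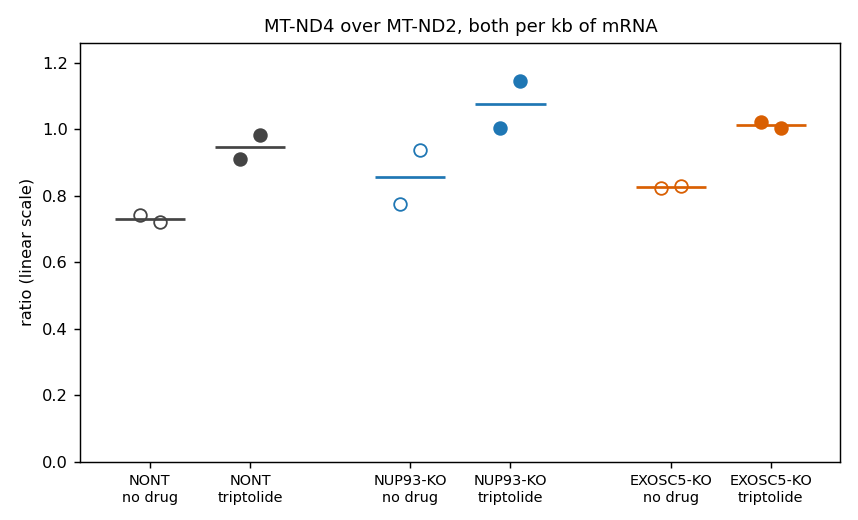
Ratio of the MT-ND4 level to the MT-ND2 level, both per kb of mRNA (y, linear from 0), in each library, by genotype and treatment (x); bars are the mean of 2 libraries. The treated libraries, at 0.910 to 1.15, lie above the untreated ones of the same genotype in all 3 genotypes. The pair was chosen after its values were seen, so this separation is a description only.

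The light-strand MT-ND6 was next compared with the heavy strand within each library, as log2 of MT-ND6 over the summed value of the 6 other heavy-strand mRNAs that are not complex I members. This log2 ratio was −9.65 and −10.32 in NONT without drug and −10.97 and −11.71 with triptolide. It was −10.27 and −9.81 against −10.72 and −10.07 in NUP93-KO, and −10.22 and −10.60 against −10.91 and −10.90 in EXOSC5-KO. The treated mean was the lower in 3 of 3 genotypes, and the arms did not overlap in NONT and EXOSC5-KO. A fall against these 6 mRNAs was the general pattern. On their scale the median gene was at −1.28, −1.18 and −1.17, and 81.2%, 74.4% and 75.3% of all genes were called lower. The share of genes without overlap was not counted on this scale.

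Over the 3 genotypes the mean difference was −0.73, a ratio of 0.601 (exact two-sided permutation test within genotypes, p = 0.0185 over 216 arrangements, smallest possible p = 0.00926). By genotype the differences were −1.36, −0.35 and −0.49 (exact p = 0.333, 0.667 and 0.333), and with 2 libraries against 2 the test cannot give less than 0.333. The stratified p rose to 0.0648 (exact permutation) without the second untreated or the first treated library of NUP93-KO, with differences of −0.66 and −0.63, and stayed at 0.0185 to 0.0370 without any other single library. The counting SD of MT-ND6 in a single library, 0.20 to 0.30, was of the order of the differences in the knockouts. Between genotypes, over both treatments, the log2 ratio in NUP93-KO was 0.45 above that of NONT (exact permutation p = 0.278), and the one in EXOSC5-KO differed by 0.0046 (exact permutation p = 1), where the smallest possible p was 0.0556.

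**Figure D5:**
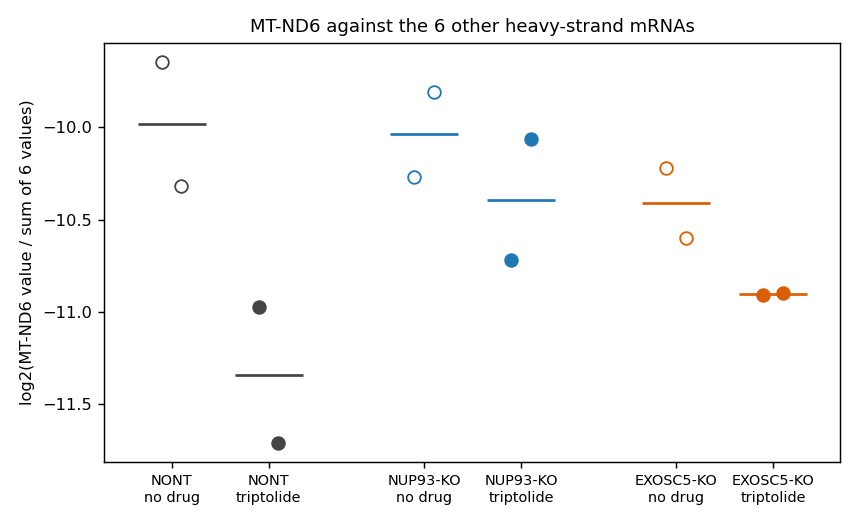
log2 of the MT-ND6 value over the summed value of the 6 other heavy-strand mRNAs (y) in each library, by genotype and treatment (x); bars are the mean of 2 libraries. The treated NONT libraries, at −10.97 and −11.71, are the 2 lowest of the 12, and in NUP93-KO the arms overlap.

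The knockouts themselves were compared with NONT in the absence of drug. None of the 7 members was called in NUP93-KO, with changes of −0.29 to 0.05 and a median of −0.11, or in EXOSC5-KO, with changes of −0.07 to 0.54 and a median of 0.36. Of all genes, 0.0217% and 0.521% were called in these comparisons. The highest value was that of MT-ND4 in EXOSC5-KO (0.54, SE 0.22, adjusted p = 0.502, limma), the only 1 of the members under 0.05 before adjustment in EXOSC5-KO; in NUP93-KO there were 0. MT-ND6 was at −0.11 and −0.07. Both comparisons use the same NONT libraries. Without the first of these the medians were −0.40 and −0.05 and no member was called in either, where 0.116% and 0.724% of all genes were, with 6 and 0 members under 0.05 before adjustment. Without the second they were 0.33 and 0.79, and 5 members were called higher in EXOSC5-KO (MT-ND1, MT-ND2, MT-ND4, MT-ND4L and MT-ND5), where 1.43% of all genes were.

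Scaled to the same sum over all genes, MT-ND4 alone was higher in EXOSC5-KO without drug (0.51, adjusted p = 0.0158, limma), where 2.78% of all genes were. Scaled to the other mitochondrial mRNAs, no member was called in either knockout (0.0941% and 3.75% of all genes), and the changes ran from −0.24 to 0.11 in NUP93-KO and from −0.42 to 0.18 in EXOSC5-KO.

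The responses to triptolide were also compared between genotypes, as the knockout's response minus that of NONT. No member passed the test in either knockout, although the point estimates were all above 0: they ran from 0.56 to 1.56 in NUP93-KO (median 0.75, median of all genes 0.74) and from 0.37 to 1.27 in EXOSC5-KO (median 0.47, median of all genes 0.57). Of all genes, 0.775% and 0.333% were called, and before adjustment 5 and 0 members were under 0.05. The largest were those of MT-ND6, at 1.56 (SE 0.61, adjusted p = 0.0853, limma) and 1.27 (SE 0.61, adjusted p = 0.216), so its fall in NONT was not shown to differ from its values in the knockouts. Both differences take the same NONT libraries as their base. Without the first untreated one, 6 members, those of the heavy strand, were called in both knockouts (medians 1.18 and 0.90), where 51.0% and 38.2% of all genes were; without the second, none was (medians 0.31 and 0.056), and neither was any other gene by limma (0.00% in both), with 3 and 0 members under 0.05 before adjustment.

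The nuclear genes of the same complex were read from a list of subunits, of which 36 were tested. With triptolide 35, 3 and 6 of the 36 were lower by genotype, where 90.0%, 55.1% and 64.3% of all genes were, with medians of −0.89, −0.20 and −0.35 beside the −1.62, −0.92 and −1.08 of the median gene. As a difference in response from NONT, 0 of the 36 were called in either knockout, where 0.775% and 0.333% of all genes were. The medians of these differences were 0.69 and 0.53, beside 0.74 and 0.57 for all genes. The counts called lower in the knockouts hung on single libraries. Without either untreated NONT library 6 were lower in NUP93-KO and 16 in EXOSC5-KO, whereas the NUP93-KO count was 1 without its second untreated library, either of its treated libraries or any EXOSC5-KO library, and the EXOSC5-KO count was 3 without either of its untreated libraries and 2 without either treated one. On the scale of the same sum over all genes this turned, with 28, 26 and 25 of 36 called higher (medians 0.45, 0.37 and 0.44), where 15.2%, 13.9% and 14.7% of all genes were. Relative to the other mitochondrial mRNAs, 28, 23 and 18 were lower and none higher (medians −0.54, −0.46 and −0.45), where 81.2%, 74.4% and 75.3% of all genes were lower. By their mean response over genotypes, NDUFV3, a small accessory subunit of the NADH-oxidising module, and NDUFV2, a core subunit there, were the lowest (−2.75 and −0.83, both called). NDUFA3 and NDUFB2, accessory subunits of the membrane arm, were the highest (0.41 and −0.13, adjusted p = 0.261 and 0.294, limma), NDUFA3 at values of only 6.83 to 21.4. At the same sum over all genes NDUFV3 was at −1.86 and NDUFA3 at 1.24, in the same direction as before, while NDUFV2 and NDUFB2 turned to 0.07 and 0.76.

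Of 17 complex I assembly factors, 17, 6 and 7 were lower by genotype, with medians of −1.07, −0.65 and −0.50, where 90.0%, 55.1% and 64.3% of all genes were lower. At the same sum over all genes 5 were higher in each genotype and 4, 5 and 3 lower, beside 38.2%, 39.3% and 36.7% of all genes lower. The EXOSC5-KO count was 4 without its first untreated or its second treated library. TMEM186 and TMEM70 had the lowest mean responses (−5.02 and −3.19), and TIMMDC1 and NDUFAF8 the highest (−0.28 for both), each of the 4 being called lower. At the same sum over all genes TMEM186 and TMEM70 were still lower (−4.21 and −2.30), while TIMMDC1 and NDUFAF8 turned to 0.62 and 0.61. Without drug, none of the subunits or assembly factors was called in either knockout. The difference in response from NONT was called for 0 of the 17 assembly factors in either knockout, beside 0.775% and 0.333% of all genes.

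The machinery that transcribes mitochondrial DNA is itself encoded in the nucleus. All 8 genes of that list were lower with triptolide in each of the 3 genotypes, with medians of −3.70, −2.85 and −2.56, where 90.0%, 55.1% and 64.3% of all genes were lower. At the same sum over all genes 8, 7 and 6 of them were still lower. POLRMT, the polymerase, went from 864 and 1579 to 316 and 263 in NONT, and its log2 change was −2.01, −1.46 and −1.28. TFAM, which packages mitochondrial DNA and opens its promoters, was at −1.59, −0.79 and −1.30. TFB2M, the initiation factor, was at −3.02, −2.15 and −2.65, and TEFM, the elongation factor, at −3.82, −2.97 and −2.69. Each of these 4 genes fell in each genotype (adjusted p of 0.00360 or less, limma), although TFAM by median of ratios was at 0.05, 0.11 and −0.23.

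Of 18 genes for mitochondrial RNA processing and decay, 17, 11 and 13 were lower by genotype (medians −2.11, −1.21 and −1.46), beside 90.0%, 55.1% and 64.3% of all genes. At the same sum 10 were lower in each genotype and 4, 3 and 4 higher. The difference in response from NONT was called for 1 of the 18 in NUP93-KO and 0 in EXOSC5-KO. Of all genes, 0.775% and 0.333% were called. MTPAP, the mitochondrial poly(A) polymerase, fell from 502 and 603 to 21.3 and 22.5 in NONT, and its log2 changes were −4.59, −3.19 and −4.01, all called. The helicase SUPV3L1 and the exonuclease PNPT1 form the mitochondrial degradosome. SUPV3L1 was lower in each genotype (−2.28, −1.76 and −1.80), whereas PNPT1 was called lower in NONT (−0.78) and was at −0.24 and −0.42 in the knockouts (adjusted p = 0.368 and 0.0897, limma). SLIRP, which with LRPPRC binds and stabilises heavy-strand mRNAs, was called lower in NONT (−0.77) and was at −0.02 and −0.19 in the knockouts (adjusted p = 0.941 and 0.440). At the same sum over all genes PNPT1 and SLIRP in NONT turned to 0.56 each, while MTPAP and SUPV3L1 stayed lower. LRPPRC was at −1.13, −0.85 and −0.02 and was not called (adjusted p = 0.0733, 0.229 and 0.974), with replicates as far apart as 183 and 61.6 in NONT without drug. Their part in the levels of the members was not tested.

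The pattern over the 12 libraries was compared between genes by Pearson's r of log2 values, as a description over libraries that share their scaling and treatment. The mean of the heavy-strand members followed the other mitochondrial mRNAs at r = 0.941 to 0.997, above every one of 9944 nuclear genes, whose median was 0.278. The nearest nuclear genes were NDUFB2 (0.919), itself a complex I subunit, ABHD12B (0.911) and KCTD13 (0.909). MT-ND6 followed the mean of its fellow members at only 0.510 and the other mitochondrial mRNAs at 0.464 to 0.694, whereas its median r with nuclear genes was 0.752. Its nearest were CIZ1 (0.984), EMC10 (0.978) and DEF8 (0.972). EMC10, for example, was at 1804 and 2537 in NONT without drug, at 725 and 336 with triptolide, and at 1571 and 2062 in NUP93-KO with triptolide. Like MT-ND6 it was lowest in the treated NONT libraries, but it was picked for its high r with MT-ND6. In NONT the treated libraries lay wholly below the untreated ones for 94.8% of all genes.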

How the data were processed

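Polyadenylated RNA was measured in 12 libraries (6 groups, 2 replicates). The authors added ERCC spike-ins by counted cells, pseudoaligned reads with kallisto 0.46.1 in a strand-specific mode to the Ensembl GRCh38 cDNA set, summed them per gene with tximport, divided them by DESeq2 size factors from the ERCC transcripts and kept protein-coding genes. The deposited values are this normalised signal, not counts; a wrong cell count moves all genes of a library together, and reads of nuclear copies of mitochondrial DNA can be assigned to the members or away from them. The most repeated low value of each library was taken as 1 read, so the approximate reads are estimates. Only 15.0% to 27.4% of the values above 0 and under 12 were whole multiples of it, depending on the library. Counting errors from these reads cover counting only. The table held 92 ERCC rows, which were left out, and 22379 genes, 3377 of them at 0 throughout; 19584 matched a symbol in GENCODE release 44, which also gave coordinates, and sequences were read from hg38.

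Values were analysed as log2(value + 1), which understates the change of low genes. Genes with a mean of at least 10 in the untreated libraries (13811, all 7 members among them) were fitted with limma 3.58.1 in R 4.3.3 (6 group means, mean-variance trend), two-sided, with Benjamini-Hochberg adjustment over all genes and a threshold of 0.05. The script was checked on simulated data. MT-ND6 ratios were tested by exact permutation in Python 3.11.15 (NumPy 2.4.6, pandas 2.3.3), and figures were drawn with matplotlib 3.10.9. Alternatives were the same sum, median of ratios, a pseudocount of 10, no filter, no trend, a replicate block, other denominators and leaving out each library; a group left with 1 library was assumed to vary like the rest. The labels do not say that replicates were separate cultures, so p-values measure the spread between these samples.

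Named were all members, 9 genes of mitochondrial RNA synthesis and turnover, the 2 lowest and 2 highest complex I subunits and assembly factors by mean response, and the 3 nuclear genes most like the heavy-strand members and like MT-ND6 (mean of at least 100). The members and the lists were chosen with earlier results of these data known.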

Additional observations from a re-analysis of the deposited data

How the results depend on the processing

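The heavy-strand members' response to triptolide turned with the scale, and the median of the 7 members moved with it. In the order NONT, NUP93-KO, EXOSC5-KO it was 0.92, 0.85 and 0.82 with libraries set to the same sum over all genes, and 1.23, 1.17 and 1.10 by median of ratios, with 6 members called in NONT and 6 for the mean of genotypes on both scales. Of all genes, 15.2% and 26.8% were called higher in NONT on these scales, and 21.3% and 34.5% for the mean. In NONT the same sum and median of ratios gave 0.77 and 1.07 for MT-ND1, 0.82 and 1.12 for MT-ND2, 0.93 and 1.24 for MT-ND3, 1.19 and 1.50 for MT-ND4, 1.15 and 1.46 for MT-ND4L and 0.92 and 1.23 for MT-ND5. MT-ND2 in EXOSC5-KO came to 0.72 and 1.00. For the mean of genotypes they gave 0.81 and 1.11 for MT-ND1, 0.78 and 1.08 for MT-ND2, 0.84 and 1.14 for MT-ND3 and 0.17 and 0.46 for MT-ND6, the last without a call. The medians of the difference in response came to −0.025 and −0.0034 for NUP93-KO, and for EXOSC5-KO to −0.073 and −0.10. By construction these scales remove the fall of all mRNAs together. Without the trend, 1 member was called in NONT.

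Leaving out 1 library at a time, the medians with triptolide ranged from −0.88 to −0.051, 0.25 to 0.33 and −0.064 to 0.11 in the same order. Against NONT without drug they ranged from −0.40 to 0.33 (NUP93-KO) and −0.052 to 0.79 (EXOSC5-KO), and from 0.31 to 1.18 and 0.056 to 0.90 for the differences in response; each of these extremes against NONT came from the 2 untreated NONT libraries. The members called ranged from 1 to 7 in NONT, 1 to 4 for the mean of genotypes and 2 to 3 for that mean relative to the other mitochondrial mRNAs. The MT-ND6 ratio ranged from −0.86 to −0.61 with triptolide, and against NONT from 0.26 to 0.63 (NUP93-KO) and −0.18 to 0.19 (EXOSC5-KO). With all libraries, the triptolide comparison also gave p = 0.0185 (exact permutation) over other denominators, which share mRNAs with the main one. The deviations of equally numbered replicates correlated over genes at −0.05 to 0.04, so no gene-wise pairing by number was seen. This r cannot show a shift shared by whole libraries. With a replicate block, MT-ND2 in NONT (adjusted p = 0.0546), MT-ND4 in NUP93-KO (0.0671) and MT-ND4L for the mean (0.0650) missed the threshold in limma. The last pair were relative to the other mitochondrial mRNAs, and MT-ND6 relative to them stayed at −0.71. Scaled to MT-CO1, MT-CO2 and MT-CO3 alone, MT-ND4 in NUP93-KO (adjusted p = 0.0511, limma) and MT-ND4L for the mean (0.0612) also missed the threshold. Relative to all the other mitochondrial mRNAs, both missed it without the trend (0.0931 and 0.0717, limma), and MT-ND4 without the filter (0.0637). On the spike-in scale, MT-ND4 in NUP93-KO and MT-ND2 in NONT missed it without the filter (0.0835 and 0.0852, limma). Depth limits MT-ND6 most, at 24 to 53 reads a library.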
